A study of Mus musculus with 6 samples.

Results

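The chemokines and chemokine receptors of mouse inguinal adipose tissue were taken from the table of all genes by their symbols. A gene was a member when its symbol was Ccl, Ccr, Cxcl, Cxcr or Ackr with digits and at most 1 letter, or was Cx3cl1, Cx3cr1, Xcl1 or Xcr1. Of the 19831 listed genes, 60 were members, with 38 ligands, 18 signalling receptors and 4 atypical receptors among them. By known role, 25 were placed with the lymphoid, 23 with the myeloid and 12 with the homeostatic members. The tissue, iAT, was the subcutaneous fat depot of the groin, and RNA of 6 samples from postnatal day 6 was sequenced. The wild-type (WT) group held 3 samples and the knockout (KO) group held 3 samples lacking Npffr1, the gene of a neuropeptide FF receptor. All animals were kept free of specific pathogens, no treatment separated the groups, and neither the sex of each animal, the strain of each group nor the cells in which the gene was lost is given in the labels. The labels do not say whether an animal gave 1 sample, so a p-value measures the spread between these libraries only.

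Chemokines are small secreted proteins that guide migrating cells along a gradient, and their receptors signal through Gi proteins. Lymphoid members such as Ccl19, Ccl21a and Cxcl13 draw T cells, B cells and dendritic cells into lymph nodes and into their zones, while myeloid members recruit monocytes, neutrophils and eosinophils. Homeostatic ligands are made steadily, Cxcl12, the best known, by stromal cells and others by epithelium or endothelium. Atypical receptors (Ackr) take up chemokines without the usual signalling.

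The classes are named after the spacing of the first cysteines of the mature protein. The coding stretches of 9 of the members described below are shown for this spacing, which also gives the symbols their C, X and 3. They were read from the GENCODE M21 transcripts of the build GRCm38, 30 bases each, with the codons of these cysteines in capitals.
Ccl19 (CC, chr4:42755242-42755271, minus strand): gaagacTGCTGCctgtctgtgacccagcgc
Ccl21a (CC, chr4:42773717-42773746, minus strand): caggacTGCTGCcttaagtacagccagaag
Ccl22 (CC, chr8:94746928-94746957, plus strand): agtatcTGCTGCcaggactacatccgtcac
Ccl5 (CC, chr11:83529224-83529253, minus strand): actcccTGCTGCtttgcctacctctccctc
Ccl8 (CC, chr11:82116050-82116079, plus strand): gtcaccTGCTGCtttcatgtactaaagctg
Cxcl12 (CXC, chr6:117171502-117171531, plus strand): taccgaTGCcccTGCcggttcttcgagagc
Cxcl13 (CXC, chr5:95958658-95958687, plus strand): ttaaaaTGTaggTGTtctggagtgatttca
Cx3cl1 (CX3C, chr8:94778045-94778074, plus strand): acgaaaTGCgaaatcatgTGCgacaagatg
Xcl1 (XC, chr1:164932954-164932983, minus strand): agtagcTGTgtgaacttacaaacccagcgg
The cysteine codons are adjacent in the CC genes, separated by 1 codon in the CXC genes and by 3 codons in Cx3cl1, and Xcl1 has a single one there.

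The Ccl21 genes are near-identical copies on chromosome 4, and the sequence around 1 of their differences is shown because it bears on their values. Over 399 coding bases Ccl21a and Ccl21b differed at 2 positions, T84A and C194T, counted from the first base of the start codon with the base of Ccl21a first. The stretch from coding base 189 to 224 is given with C194T in capitals, and Gm21541 is the gene whose 2 listed values were those of Ccl21c to the last digit.
Ccl21a (chr4:42773513-42773548, minus strand): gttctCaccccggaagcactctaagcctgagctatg
Ccl21b (chr4:42256137-42256172, plus strand): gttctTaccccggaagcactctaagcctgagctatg
Gm21541 (chr4:41904055-41904090, plus strand): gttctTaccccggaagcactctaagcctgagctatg
Of the stretches of 31 bases in the coding sequence of Ccl21a, 83.2% occurred unchanged in that of Ccl21b. Ccl21b and Gm21541 were identical over their coding bases, and Ccl27a differed from Ccl27b at 3 of 360. Reads of such copies cannot be assigned with certainty, so the values of the Ccl21 and Ccl27 genes are uncertain between copies.

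The table gave 1 value per genotype and gene, a count normalised for library size and drawn towards equality between the genotypes, with sums of 23137343 for WT and 23640005 for KO. Whole reads of the 6 libraries could be worked back from these values for 8710 genes, none with a mean above 200, and for 34 of the 60 members. Libraries are numbered by size factor within a genotype, from 0.916 for KO 1 to 1.04 for KO 3, and are not tied to the numbers of the samples. The value of a library is given below as reads divided by its size factor, called normalised reads. Npffr1 itself was barely detected, with 5, 0 and 1 reads in WT 1, WT 2 and WT 3 and 0 reads in each of the 3 KO libraries, so that the knockout could hardly be checked from it. Gene length moved with the genotype difference: among the 15309 genes whose mean reached 10, Spearman's rho of length and log2 ratio was -0.384, shorter genes being higher in KO. The median length was 1667 bases for members and 2785 bases for all these genes, and values centred among genes of like length are therefore given beside group results. Adipocyte genes were the most abundant of the marker lists, led by Fabp4 at 156285 in WT, and lymph node genes were present too, with Glycam1, made by high endothelial venules, at 5392 and Madcam1 at 1508 in WT.

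Lymphoid ligands and Cxcl12 held the highest levels. Cxcl12, which retains and attracts leukocytes through Cxcr4, had an authors' value of 8329 in WT and 7371 in KO. Ccl21a and Ccl19, both ligands of Ccr7 made in T cell zones, were at 5536 and 3679 in WT and at 7100 and 4329 in KO. Ccl22, a product of dendritic cells and macrophages, followed with 2663 in WT and 4158 in KO. These 4 genes made up 57.5% of the members' summed value in WT, and all members together made up 0.152% of the sum over all genes in WT and 0.170% in KO. Divided by gene length, the order in WT changed to Ccl21a with 6378, Ccl19 with 5110, Ccl5 with 3445 and Cxcl12 with 3243 per 1000 bases. No error can be given for these pooled values, so neighbours in this order cannot be separated.

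Many members lay far lower. The median member stood at the 40.8 percentile of all listed genes by its WT value, and 12 of 60 had a mean under 10. Those 12 were Ccl1, Ccl20, Ccl21b and Ccl21c among the lymphoid members, Cxcl2, Cxcl3, Cxcl5, Cxcl15, Ccr3 and Cxcr1 among the myeloid members, and Ccl27b and Cxcl17 among the homeostatic members. Cxcl15 and Cxcr1 were at 0.69 and 0.75 in WT, the lowest of all members.

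**Figure D1:**
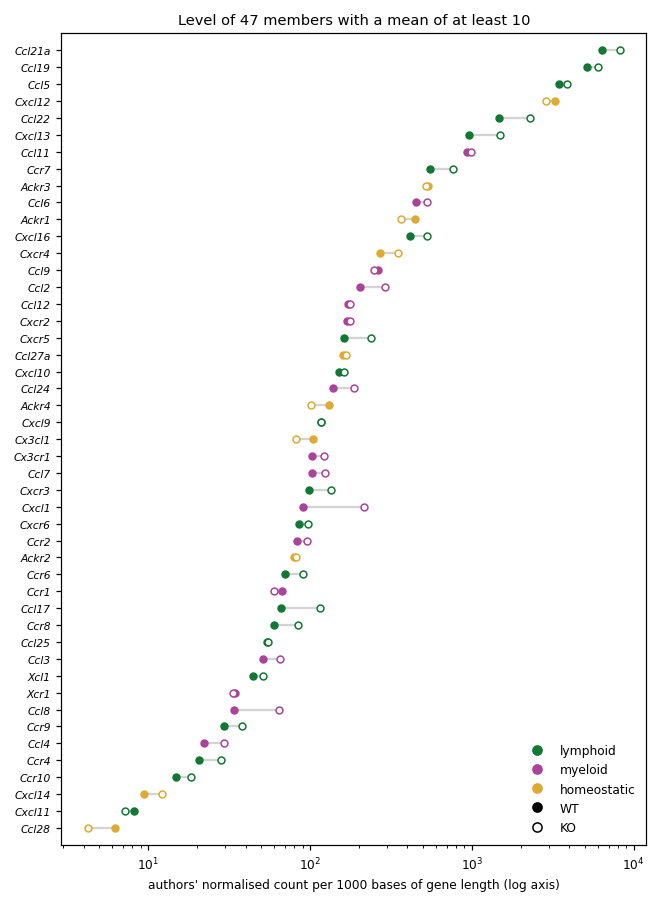
Level of 47 members with a mean of at least 10, as the authors' normalised count per 1000 bases of gene length on a log axis, with filled points for WT and open points for KO. Ccl21a stood highest at 6378 in WT and Ccl28 lowest at 6.29, and the widest gap between the genotypes was that of Cxcl1.

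Receptors and their ligands differed widely in level per length. In WT, Ccr7, which brings T cells and dendritic cells into lymph nodes, was at 551 per 1000 bases, below its ligands Ccl19 by 9.27 times and Ccl21a by 11.6 times. Cxcr5, the follicle-homing receptor of B cells, was at 162 against 967 for its ligand Cxcl13. Cxcr4 was at 269 against 3243 for Cxcl12. Ligand stood above receptor in each of these pairs.

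Among other pairs the order varied. Cx3cr1, a receptor of monocytes and macrophages, was at 104 per 1000 bases and its ligand Cx3cl1 also at 104. Xcr1, a receptor of cross-presenting dendritic cells, was at 34.5 and its ligand Xcl1 at 44.2. Ccr6 was at 70.2 while its ligand Ccl20 was at 3.93. Cxcr2, a receptor of neutrophils, was at 170 in WT while Cxcl1 was at 90.3, Cxcl2 at 3.81, Cxcl3 at 2.63 and Cxcl5 at 4.18. In KO, Cxcl1 stood above Cxcr2, at 217 against 177. The ligand was again higher in WT for the eosinophil receptor Ccr3, at 1.07 against 927 for Ccl11 and 139 for Ccl24. Ccl22 exceeded Ccr4 by 71.0 times, Ccl27a exceeded Ccr10 by 10.9 times and Cxcl16 exceeded Cxcr6 by 4.84 times.

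Against WT, most lymphoid and myeloid ratios were above 0 in KO, while 4 of 10 homeostatic ratios were, at a mean of at least 10. The authors' value was higher in KO for 36 of the 48 members with a mean of at least 10, where 51.2% of all genes with such a mean were higher. The median log2 ratio of KO over WT was 0.23 for these members and 0.01 for all genes. After centring among genes of like length the members' median was 0.09, with 29 of 48 above 0. Counted over all 60 members, 9 were past 0.5 in size. Among the 48, 7 members were higher by at least 0.5 and 1 was lower by at least 0.5, while 4.37% of all genes were higher and 4.78% lower by that size (9.15% in either direction). The ratios are pooled values with no replicate error, so these counts carry no test.

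**Figure D2:**
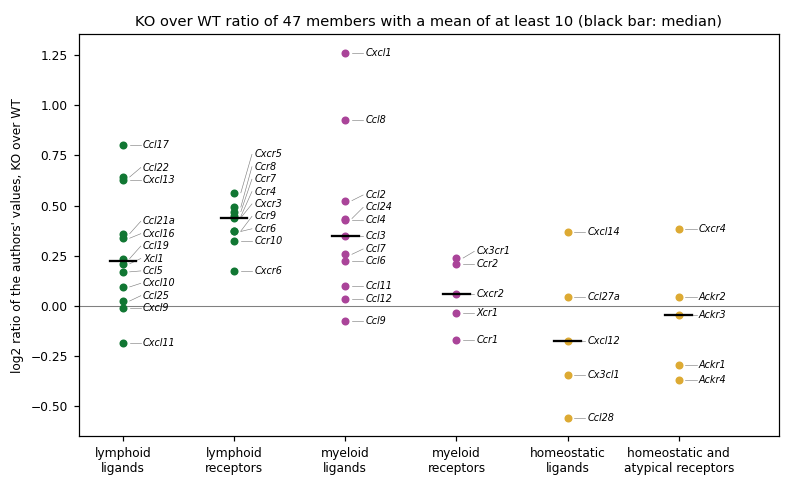
Log2 ratio of the authors' values, KO over WT, for 47 members with a mean of at least 10, by group and role, with the black bar at the median. All 9 lymphoid receptors lie above 0, from 0.17 to 0.56, and Cxcl1 lies highest of all at 1.26.

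Among the members whose reads were worked out, 27 had a mean of at least 5 and entered the test. None of the 27 passed an adjusted p of 0.05 (limma with a variance trend on log2 of normalised reads plus 1, Benjamini-Hochberg over 5056 genes), and 2 members, Ccl17 and Ccl8, had an unadjusted p under 0.05. Of all tested genes, 15 passed, or 0.297%, and 12.8% had an unadjusted p under 0.05. The count of members was 0 in every alternative run as well, with 1 to 6 members at an unadjusted p under 0.05. In data simulated for this comparison over 5056 genes, the test found 13% of genes changed 2-fold and 52% of genes changed 4-fold. It also called 6 unchanged genes. Most 2-fold changes were missed in that setting. The simulated spreads were shuffled among genes of all levels, so the share missed for a member may differ. Between the genotypes, 3 of the 27 members had libraries that did not overlap, all higher in KO, namely Ccl17, Ccl8 and Ccr9. The share of tested genes with KO libraries all higher was 6.88%, and with KO libraries all lower 10.9%.

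The lymphoid receptors were the most uniform group by direction. All 9 had an authors' value above WT in KO, with a median log2 ratio of 0.44, and all 9 stayed above 0 after centring by gene length, with a median of 0.32. Of the 6 tested, none passed. In bulk tissue, more cells of a type cannot be told apart from more RNA per cell.

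Ccr9, the receptor that guides T cells to the gut and within the thymus, had 142, 104 and 137 normalised reads in WT 1 to WT 3 and 158, 161 and 182 in KO 1 to KO 3. Every KO library was above every WT library. The means were 128 ± 20.8 (SD, n = 3) and 167 ± 13.0 (SD, n = 3), and the log2 difference was 0.40 with a standard error of 0.19 (limma, adjusted p = 0.399). Ccl25, its ligand, had 48.6, 81.3 and 47.3 in WT and 58.9, 64.6 and 56.9 in KO, a span of KO values inside that of WT.

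Ccr4, found on helper T cells that enter skin and on regulatory T cells, had 73.4, 49.9 and 46.4 in WT and 69.8, 77.7 and 90.6 in KO. WT 1 exceeded KO 1, so the groups overlapped by that pair. The log2 difference was 0.50 with a standard error of 0.27 (limma, adjusted p = 0.458). Its ligand Ccl17, made by dendritic cells, had 36.7, 26.4 and 39.6 in WT and 65.5, 52.5 and 74.2 in KO. The lowest KO library of Ccl17 exceeded the highest WT library. The means were 34.2 ± 6.92 and 64.1 ± 10.9 (SD, n = 3 each), and the log2 difference was 0.89 with a standard error of 0.29 (limma, unadjusted p = 0.00764, adjusted p = 0.218). The other ligand of Ccr4, Ccl22, was too abundant for reads to be worked out, and its authors' value had a log2 ratio of 0.64.

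Ccr8, another receptor of regulatory and helper T cells, had 86.3, 47.0 and 70.5 in WT and 76.4, 102 and 119 in KO. KO 2 and KO 3 lay above all WT libraries and KO 1 did not. The log2 difference was 0.56 with a standard error of 0.27 (limma, adjusted p = 0.418). Ccl1, its ligand, was near the limit of detection, with 1.98, 0.979 and 9.66 in WT and 8.73, 3.03 and 0 in KO.

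Ccr6, carried by B cells and by a class of helper T cells, had 109, 92.0 and 93.7 in WT and 76.4, 148 and 166 in KO. KO 1 was the lowest of all 6 libraries, and KO 2 and KO 3 were the highest. The log2 difference was 0.33 with a standard error of 0.27 (limma, adjusted p = 0.663), and it was 0.20 without KO 2, 0.12 without KO 3 and 0.67 without KO 1 (adjusted p = 0.242, in a range of 0.242 to 0.924 over the alternatives). Ccl20, its ligand, did not exceed 7.73 in any library.

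Ccr10, a receptor of skin-homing lymphocytes and antibody-secreting cells, had 26.8, 29.4 and 18.3 in WT and 24.0, 28.3 and 45.3 in KO. KO 3 alone exceeded the WT range, and the log2 difference was 0.35 with a standard error of 0.35 (limma, adjusted p = 0.734). Cxcr6, a receptor of tissue-resident and natural killer T cells, had 179, 158 and 152 in WT and 153, 204 and 195 in KO. The groups overlapped through KO 1, and the log2 difference was 0.17 with a standard error of 0.18 (limma, adjusted p = 0.749).

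The reads of Ccr7, Cxcr5 and Cxcr3 were not worked out. Ccr7 was at 1073 in WT and 1486 in KO, a log2 ratio of 0.47. Cxcr5 was at 427 and 631, a log2 ratio of 0.56, the highest of the 9 receptors. Cxcr3, carried by effector T cells and natural killer cells, was at 159 and 216, a log2 ratio of 0.44.

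KO 3 held the highest value of 5 of the 6 lymphoid receptors with reads, and KO 2 that of Cxcr6. Counting ligands too, KO 3 was the highest library for 6 of 11 lymphoid members with a mean of at least 10, while it was the highest for 20.1% of all 4195 such genes with reads. Without KO 3 the log2 differences were 0.40 for Ccr4, 0.42 for Ccr8, 0.34 for Ccr9, 0.12 for Ccr6 and 0.09 for Ccr10, and those of Ccr6 and Ccr10 had moved by more than 1.5 times. WT libraries mattered too: without WT 2 the differences of Ccr8 and Ccr9 were 0.32 and 0.26, and without WT 3 that of Ccr10 was 0.16, while it was 0.54 without KO 1. T cell markers moved with this group: all 9 listed T cell markers were higher in KO by the authors' values, with log2 ratios from 0.53 to 0.77 and a median of 0.57 after centring, among them Cd3e at 633 in WT and 986 in KO. B cell markers were higher too, 8 of 8, with a median of 0.26 that became 0.16, and both lists were too abundant for reads per library. Their part in the receptor values was not tested.

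**Figure D3:**
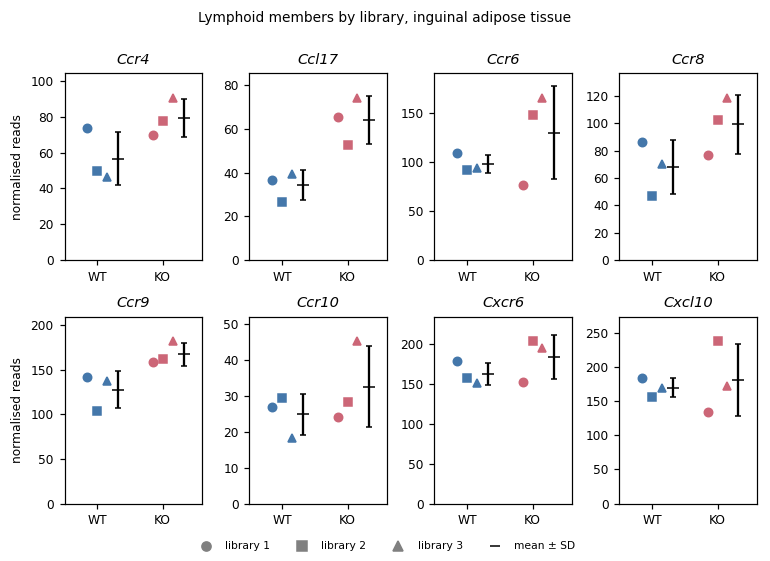
Normalised reads of 8 lymphoid members in each library, with WT in blue, KO in red, a marker shape for the library number within a genotype, and the mean ± SD of 3 libraries in black. The genotypes do not overlap for Ccl17 and Ccr9, and the third KO library is the highest in Ccr4, Ccl17, Ccr6, Ccr8, Ccr9 and Ccr10.

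The lymphoid ligands were less uniform than their receptors. Of 12 with a mean of at least 10, 10 were higher in KO by the authors' values with a median log2 ratio of 0.22, but centring by gene length left 5 of 12 above 0 and a median of -0.03. Ligands are short genes, and the direction of this group turned with that setting. Ccl17, Ccl22 and Cxcl13 were past 0.5, with 0.80, 0.64 and 0.63, and remained at 0.53, 0.56 and 0.46 after centring. Cxcl13, made by follicular stromal cells, was at 1123 in WT and 1735 in KO.

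The Ccr7 ligands Ccl19 and Ccl21a had log2 ratios of 0.23 and 0.36, which became -0.03 and 0.15 after centring. Ccl5, made by T cells and natural killer cells, had a ratio of 0.17, at 1995 in WT and 2242 in KO. Cxcl16, the ligand of Cxcr6, had a ratio of 0.34, at 1019 and 1287.

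The interferon-induced ligands of Cxcr3 showed no shared direction. Cxcl10 had 184, 156 and 169 normalised reads in WT and 134, 238 and 172 in KO. Its lowest and its highest library were both KO libraries, and the log2 difference was 0.06 with a standard error of 0.20 (limma, adjusted p = 0.943). Cxcl11 had 15.9, 14.7 and 9.66 in WT and 9.82, 9.08 and 14.5 in KO, overlapping ranges. Cxcl9 was at 342 and 339 by the authors' values, a log2 ratio of -0.01.

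Xcl1, made by T cells and natural killer cells, had 32.7, 19.6 and 12.6 in WT and 37.1, 21.2 and 20.2 in KO. Each genotype held 1 library well above its other two, and the log2 difference was 0.31 with a standard error of 0.41 (limma, adjusted p = 0.813). It was -0.0092 without WT 3, 0.04 without KO 1 and 0.65 without WT 1, and 0.12 after centring by gene length.

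The copies of Ccl21a showed reads in single libraries. All 30 reads assigned to Ccl21b were in KO 1, and all 27 reads assigned to Ccl21c were in WT 3, with 0 in the other 5 libraries in both cases. The authors' values, 5.12 and 5.79 for Ccl21b and 4.61 and 4.08 for Ccl21c, do not show this. With the sequences above differing by so few bases from Ccl21a, which stood at 5536 in WT, which copy these reads came from was not tested.

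The myeloid ligands were higher in KO for 10 of 11 with a mean of at least 10, with a median log2 ratio of 0.35 that fell to 0.11 after centring by gene length, when 8 of 11 were above 0. Monocyte attractants and inflammatory ligands had their highest value mostly in 1 library, KO 2. It was the highest library for 5 of 8 myeloid members with reads and a mean of at least 10, and for 12.9% of all such genes.

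Cxcl1, a neutrophil attractant acting on Cxcr2, had the largest ratio of all members, with authors' values of 87.1 in WT and 209 in KO, 2.40-fold. After centring its log2 ratio of 1.26 became 1.06. No combination of whole reads was accepted for it, as for 11 of 691 genes with a mean over 100 to 150. The search reached only combinations near the authors' values, so a gene with an outlying library could fall outside it. Whether Cxcl1 did was not tested, and no spread between libraries and no test can be given. Cxcl2, a close relative, had 0.992, 0.979 and 4.83 normalised reads in WT and 2.18, 21.2 and 1.93 in KO. KO 2 alone stood apart, and the other KO libraries lay within the WT range. Cxcl3 and Cxcl5 stayed under 15 in every library, and Cxcr2 itself was at 518 in WT and 540 in KO.

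Ccl8, a ligand of Ccr8 and of monocyte receptors made by macrophages, had 12.9, 23.5 and 9.66 in WT and 24.0, 51.5 and 30.8 in KO. Every KO library exceeded every WT library, KO 1 exceeding WT 2 by a small margin. The means were 15.4 ± 7.24 and 35.4 ± 14.3 (SD, n = 3 each), and the log2 difference was 1.17 with a standard error of 0.41 (limma, unadjusted p = 0.0115, adjusted p = 0.247). It was 0.88 without KO 2.

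The Ccr2 ligands are neighbours of Ccl8 by function, drawing monocytes out of the blood. Ccl7 had 116, 101 and 63.7 in WT and 90.6, 141 and 109 in KO. Ccl12 had 106, 77.3 and 94.6 in WT and 85.1, 117 and 82.9 in KO. In both genes KO 2 was the highest library and the groups overlapped. Ccl2, without reads, was at 164 in WT and 236 in KO, a log2 ratio of 0.52 that became 0.26 after centring. Ccr2 was at 299 and 346.

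Ccl3 and Ccl4, products of activated macrophages and T cells, varied widely within genotypes. Ccl3 had 39.7, 51.9 and 27.0 in WT and 16.4, 81.7 and 63.6 in KO. KO 1 was the lowest and KO 2 the highest of all its libraries. Ccl4 had 28.8, 0.979 and 8.69 in WT and 24.0, 32.3 and 9.64 in KO, and its log2 difference of 1.32 with a standard error of 0.76 (limma, adjusted p = 0.493) was 0.28 without WT 2 and 2.24 without WT 1.

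Ccl11, Ccl24, Ccl6 and Ccl9 had authors' values only. Ccl11, an eosinophil attractant, was at 995 in WT and 1063 in KO, and Ccl24, another, at 179 and 242. Ccl6 was at 650 and 757. Ccl9 was the exception among the myeloid ligands, at 788 in WT and 745 in KO.

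**Figure D4:**
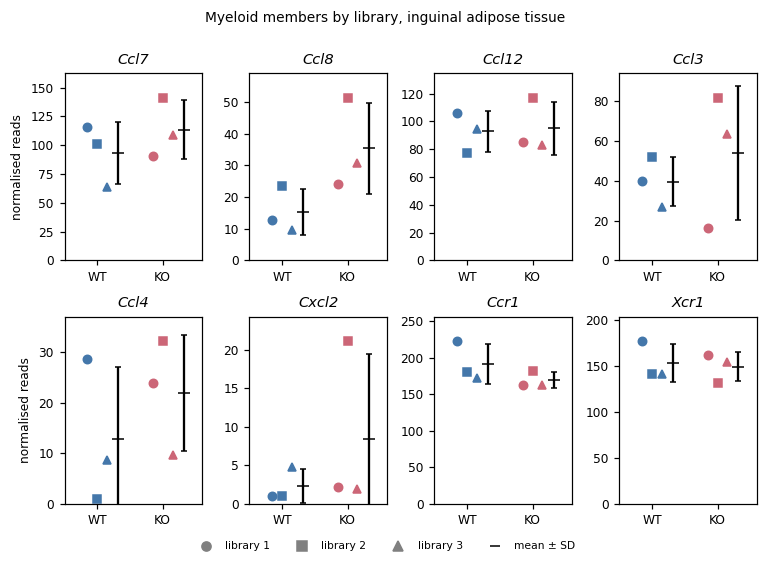
Normalised reads of 8 myeloid members in each library, with WT in blue, KO in red, a marker shape for the library number within a genotype, and the mean ± SD of 3 libraries in black. The second KO library is the highest in Ccl7, Ccl8, Ccl12, Ccl3, Ccl4 and Cxcl2, while the first WT library is the highest in Ccr1 and Xcr1, and the error bars of Ccl4 in WT and of Cxcl2 in KO run on below 0.

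The myeloid receptors showed no shared direction, with a median log2 ratio of 0.01 and 3 of 6 above 0, or 0.06 and 4 of 6 after centring by gene length. Ccr1, shared by monocytes and neutrophils, had 223, 180 and 172 in WT and 163, 182 and 163 in KO. WT 1 was the highest library and the groups overlapped. Xcr1 had 178, 142 and 141 in WT and 163, 132 and 154 in KO, a log2 difference of -0.03 with a standard error of 0.18 (limma, adjusted p = 0.965). Cx3cr1 was at 389 in WT and 458 in KO.

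Macrophage markers did not move as 1 block beside these genes. Of 9, 5 were higher in KO, with log2 ratios from -0.45 for Cd163 to 0.48 for Cd68, and the median fell from 0.22 to 0.03 on centring. Of 6 neutrophil markers with a mean of at least 10, 2 were higher in KO (median -0.16, centred -0.43), and the summed normalised reads of the 7 neutrophil markers ran from 218 to 417 in WT and from 185 to 335 in KO. KO 2, with the highest values of 5 myeloid ligands, had the lowest neutrophil sum. The dendritic cell list, which holds the members Xcr1 and Ccr7, had 4 of 7 markers higher in KO (median 0.03, centred 0.09).

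Shared letters before the start site were looked for in the neutrophil attractants, whose promoters are known to hold sites of NF-kappaB. The letters GGANNTTCC, part of the known site, and GGAANNTCC on the other strand were searched in the 250 bases before the start in the RefSeq promoters of GRCm38.p6, of which 45 members had one. They occurred in 7 of the 45, namely Cxcl1, Cxcl2, Cxcl3, Cxcl10, Ccl1, Ccl12 and Ccr3, or 15.6%, and in 3.72% of the promoters of 14554 listed genes. By group they were found in 5 of 16 myeloid, 2 of 18 lymphoid and 0 of 11 homeostatic promoters. The 170 bases before the start of the 3 genes described above are shown with the match in capitals.
Cxcl1 (chr5:90891075-90891244, plus strand): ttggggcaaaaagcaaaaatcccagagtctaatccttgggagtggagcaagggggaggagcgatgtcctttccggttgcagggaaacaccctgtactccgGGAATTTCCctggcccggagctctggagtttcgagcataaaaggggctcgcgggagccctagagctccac
Cxcl2 (chr5:90903729-90903898, plus strand): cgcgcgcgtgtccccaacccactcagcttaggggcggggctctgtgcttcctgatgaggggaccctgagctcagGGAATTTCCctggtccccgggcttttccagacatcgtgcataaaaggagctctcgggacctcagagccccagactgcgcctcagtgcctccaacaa
Cxcl10 (chr5:92348890-92349059, minus strand): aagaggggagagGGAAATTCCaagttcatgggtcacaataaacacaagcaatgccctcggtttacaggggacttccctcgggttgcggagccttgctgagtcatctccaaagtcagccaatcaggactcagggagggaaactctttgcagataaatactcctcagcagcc
A match is a run of letters and not a measured site. Among the genes with it, Cxcl1 had the largest ratio of all members, while Cxcl10 and Ccl12 had log2 ratios of 0.09 and 0.03. The others had a mean under 10, with log2 ratios of 0.67 for Cxcl2, 0.40 for Ccr3, -0.04 for Ccl1 and -0.24 for Cxcl3. A link between the match and the ratio was not tested.

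Of 10 homeostatic members with a mean of at least 10, 4 were higher in KO, where 51.2% of all such genes were. Their median log2 ratio was -0.11, and centring by gene length gave 3 of 10 above 0 and -0.22. Only 1 of them, Ccl28, was past 0.5 in size, lower in KO. Cxcl12 had a ratio of -0.18, and its receptors went different ways, Cxcr4 with 0.38, at 490 in WT and 638 in KO, and the scavenging receptor Ackr3 with -0.05. Cxcr4 is also carried by lymphocytes. Cx3cl1, a membrane-bound ligand of endothelium and neurons, had a ratio of -0.35, at 327 and 257.

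Of the 4 atypical receptors, 3 were lower in KO, with a median log2 ratio of -0.17 (centred -0.29), and Ackr3 was close to 0. Ackr1, found on venular endothelium, was at 518 in WT and 422 in KO, a log2 ratio of -0.30. Ackr4, which clears Ccl19 and Ccl21a, was at 276 and 213, a log2 ratio of -0.37, opposite in sign to its ligands, although after centring Ccl19 was at -0.03 and so on the same side. Ackr2, a scavenger of inflammatory CC chemokines, was at 232 and 239, a log2 ratio of 0.04. Endothelial markers were lower in KO for 4 of 5, with a median of -0.37 (centred -0.30), among them Cdh5 at 23029 in WT and 17863 in KO. The part of endothelial cells in the values of the atypical receptors was not tested.

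The epithelial ligands differed in level, with authors' values in WT of 23.6 for Ccl28 and 86.2 for Ccl27a. Ccl28, made by mucosal epithelium, had 28.8, 20.6 and 25.1 in WT and 7.64, 22.2 and 14.5 in KO. KO 2 lay within the WT range and KO 1 and KO 3 below it. The means were 24.8 ± 4.12 and 14.8 ± 7.29 (SD, n = 3 each), and the log2 difference was -0.81 with a standard error of 0.42 (limma, adjusted p = 0.444). Without KO 1 it was -0.43. Keratinocyte markers, which include Krt10 at 79.4 in WT, had 1 of 4 with a mean of at least 10, and of the 4 listed mammary markers, 2 reached that mean.

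Ccl27a, a skin ligand of Ccr10, had 92.3, 56.8 and 109 in WT and 97.1, 92.8 and 77.1 in KO, overlapping ranges. Cxcl14 had 18.9, 18.6 and 11.6 in WT and 40.4, 9.08 and 21.2 in KO, and its log2 difference of 0.31 was -0.18 without KO 1, 0.09 without WT 3 and 0.84 without KO 2. Ccl27b had listed values identical to 3 other genes, which were Gm13306, Gm2506 and LOC100861978, and its libraries lay between 6.06 and 9.82.

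Genes that act with the members were counted from the listed pathway genes. Of 24 genes of receptor signalling, 19 were higher in KO with a median log2 ratio of 0.22 (centred 0.28), and 4 were past 0.5. Gnai2, the most abundant Gi subunit of the list, was at 23907 in WT and 24415 in KO, Rac1 at 12448 and 11454, and Gnb1 at 9869 and 9969. None of the 24 had reads per library. Of 11 other chemotactic genes in the table, 8 were higher in KO with a median of 0.13, but centring by gene length left 5 of 11 above 0 and a median of -0.13. The list was led by Cd74, a receptor of Mif and a chain of antigen presentation, at 15416 and 23238.

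Of 10 genes of lymphoid organisation, 7 were higher in KO with a median of 0.12 (centred 0.13), and 1 was past 0.5. Ltbr, the lymphotoxin beta receptor that drives Ccl19, Ccl21a and Cxcl13 in stromal cells, was at 2829 in WT and 2797 in KO. Its ligand chain Ltb was at 1802 and 2615. Of 8 genes listed for lymph node stroma and vessels, 5 were higher in KO with a median of 0.09, which became 4 of 8 and -0.0064 after centring. These genes did not move as 1 block. Higher by more than 0.5 were 2, Cr2 with 1.17 and Fcer2a with 0.60 (centred 1.29 and 0.54), and 0 were lower by that size. Cr2 and Fcer2a are also carried by B cells, so they do not stand for stroma or vessels alone. Glycam1, Chst4 and Tnfsf11 were at 0.09, 0.09 and 0.10, and Lyve1 and Prox1 at -0.0042 and -0.20. Madcam1 was at -0.22 (centred -0.33). Of 6 adipocyte genes, 5 were higher with a median of 0.15, which became 4 of 6 and 0.04.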

How the data were processed

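RNA of 6 inguinal adipose tissue samples, 3 WT and 3 Npffr1 KO from postnatal day 6, was sequenced, and groups were taken from the labels. The submitters' processing notes name Bowtie2, RSEM and DESeq2, without versions or role, and the genome build is not given in the sources used here. The table the authors deposited holds a signal per genotype, a normalised count in which low genes are drawn towards equality, beside gene length, fold changes and p-values, and these last were not used. A shorter table that repeats some of its genes was not used.

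The mean of both values is the mean of 6 normalised libraries. Values of genes with a single read gave the 6 size factors, and the labelled column each such gene leaned to gave the genotype. Whole reads per library were searched to the 15 digits given, and 1 accepted combination was required. This gave reads for 8710 of 19831 genes (99.7% at a mean from 25 to 60, 69.7% from 150 to 200). Where the change exceeded 0.1 in size and the mean was below 60, its direction was that of the labelled columns for 100% of 6152 genes. In genes simulated with known reads, every accepted combination was right up to a mean of 100, and 98.0% were right above 150. The reads are estimated counts as the authors rounded them. No per-sample column was left unmapped.

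Genes with reads and a mean of at least 5 were tested with limma 3.58.1 in R 4.3.3 on log2(normalised reads + 1) with a variance trend, 2-sided, with Benjamini-Hochberg adjustment and a threshold of 0.05. The added 1 shrinks the differences of low genes, that of Ccl4 from 1.45 with a pseudocount of 0.5 to 1.32. A difference of mean logs can also exceed that of the mean values. Ccl4 had its 1.32 with library means of 12.8 in WT and 22.0 in KO. No count model was used, since the deposited unit is not a count. Alternatives were pseudocounts of 0.5 and 5, no filter, a mean of at least 20, no variance trend, centring of libraries, centring in 20 classes of gene length, and leaving out each library. A limit of genes to a mean of up to 100 was added after the data were seen. The ± SD, the test and the sequences are from scripts in Python 3.11.15 and R.

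Members, groups, marker lists and pathway lists were chosen with earlier results of these data known. Named genes are all members with a mean of at least 10 or libraries that do not overlap, the partners of receptor and ligand pairs, at most 3 genes of highest mean per other list, and Npffr1. Other genes (Cd3e, Cd68, Cd163, Glycam1, Madcam1, Cr2, Fcer2a, Chst4, Tnfsf11, Lyve1, Prox1, Ltb, Ltbr and the copies of Ccl21 and Ccl27) were named after their values were seen where they are not among these. Trac, Wap and Cmkrl1 of the lists did not match a listed symbol. Sequences were read from GENCODE M21 (GRCm38) and RefSeq (GRCm38.p6). The values of 1 member are not reported here, though it is included in the counts.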

Additional observations from a re-analysis of the deposited data

How the results depend on the processing

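The count of 0 members passing the test held in all 14 alternatives. Of all tested genes, 15 passed, against 1 without the variance trend and 7 when genes were limited to a mean of up to 100. When each library was left out in turn, 1 to 23 passed, the fewest without KO 3 and the most without KO 2. These runs also had fewer replicates, so a lower count cannot be assigned to the library left out. Members past a log2 ratio of 0.5 numbered 9, against 30 at a threshold of 0.25 and 1 at a threshold of 1. The median percentile of the members was 40.8 by the WT value, 42.5 by the KO value and 46.6 per gene length. Of 11 members with a printed difference of at least 0.3 and a mean of at least 10, with each library left out in turn, Cxcl14 ran from -0.18 (without KO 1) to 0.84 and Xcl1 from -0.0092 (without WT 3) to 0.65. Over all alternatives for these members, 147 values kept their sign and 2 did not. Over the alternatives the adjusted p of Ccl17 ran from 0.149 to 0.621 and that of Ccl8 from 0.2 to 0.513. Depth limits the low members, and members above a mean of 200 have no replicate check. No paired analysis was possible because the libraries could not be tied to the replicate numbers of the labels.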
